A study of Mus musculus with 8 samples.

Results

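The OCT4 sites described here lie on pieces of the mouse genome that the GRCm38 assembly could not place, or in short chromosomal stretches packed with called sites. They were chosen by 2 criteria. The first took every called site on a contig, by its name: an unplaced contig (a name that starts with chrUn) has no chromosome, and an unlocalized contig (a name that ends in random) has a chromosome but no position on it. The second took every site on chromosomes 1 to 19 in a 100 kb bin with 10 or more summits in any 1 library, where a summit is the highest point of a called site. The mitochondrial genome and 1 stretch of chromosome 1 were left out. Together these gave 528 of the 20955 summits in 6 lists, in 379 of 20156 distinct regions. Contigs held 426 of the summits, in 305 regions on 22 contigs (12 unplaced and 10 unlocalized). The other 102 summits, in 74 regions, were in 3 dense bins, on chromosomes 9, 11 and 17. The bins were selected on their number of summits, so that number and the values beside it are given as a description, without a test.

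The data are CUT&RUN profiles of OCT4 from E14 mouse embryonic stem cells. CUT&RUN directs a nuclease to an antibody on chromatin in intact nuclei, so that DNA near the bound protein is cut free and sequenced. The E14 cells were male, without genetic change, grown without feeders in N2B27+2i medium. Their strain is labelled C57BL/6J. The conventional preparation sequenced the released DNA as it was, the bisulfite preparation kept only reads that carried methylated cytosines, and the hmC-Seal preparation captured fragments with 5-hydroxymethylcytosine through a chemical tag. Each preparation had 2 libraries, and DNA of the same 2 pools went into the conventional and the bisulfite libraries. All sites had been called against IgG, an antibody with no specific target, which shows how many fragments a stretch gives without OCT4. The IgG samples were from the conventional and the bisulfite preparation, and none had the hmC-Seal capture. For the hmC-Seal lists, IgG thus does not show what the capture gives without OCT4, and fold and pileup there hold both. No list of either of the 2 IgG samples was used here. One cell line in one medium limits what the sites stand for, and lists of sites hold no expression by which the cell type could be checked.

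OCT4, made from Pou5f1, is a transcription factor that keeps embryonic stem cells pluripotent. Unplaced contigs are mostly sequence that occurs in many copies, such as satellite repeats near centromeres, segmental duplications and members of gene families. A sequencing read from such DNA fits several places equally well, and an assembly often holds fewer copies than the cells do, so fragments from many copies can pile up on the few copies in the reference. Mouse chromosomes have their centromeres close to one end, next to which the assembled sequence begins. Ribosomal RNA genes, which encode the RNA core of ribosomes, stand in long tandem arrays on several chromosomes and are among the most abundant genes of the genome. Pericentromeric satellite DNA is known to carry dense cytosine methylation in most cells.

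The sequence of the contigs was not read here, since no genome sequence of GRCm38 was used. One sequence within the dense bins is shown, from the chromosome 9 bin. It is the mature microRNA mmu-miR-101c, from the only gene that the RefSeq gene table (GRCm38.p6) puts in that bin. The gene, Mir101c, spans chr9:3038669-3038743, and the mature form comes from the minus strand at chr9:3038680-3038698. Capitals mark the seed, bases 2 to 8, with which a microRNA recognizes its targets.
mmu-miR-101c: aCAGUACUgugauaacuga
In an older assembly of the mouse genome, NCBIM37, these 19 bases occurred 9 times. One match was on chromosome 4, and the other 8 were on chromosome 9 between positions 3038680 and 3070002 of that assembly. No OCT4 region overlapped Mir101c, and the nearest lay 256 bp away. The called sites of the bin ended at 3038413 in GRCm38, so these matches do not show how repeated the called part is.

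Contigs were nearly all an hmC-Seal feature. Neither conventional library had a summit on a contig, of 227 and 265, for which the 95% exact intervals reach up to 1.61% and 1.38%. Of the bisulfite summits, 4 of 2797 (0.143%, 95% exact interval 0.0390 to 0.366) were on contigs in replicate 1 and 5 of 2077 (0.241%, 0.0782 to 0.561) in replicate 2. The hmC-Seal libraries had 132 of 3974 (3.32%, 2.79 to 3.93) and 285 of 11615 (2.45%, 2.18 to 2.75). Intervals and limits cover counting error only. The shares of the hmC-Seal libraries thus did not overlap those of the other 4 libraries, and the mean share was 2.89% ± 0.614 (SD, n = 2) after hmC-Seal against 0.192% ± 0.0691 (SD, n = 2) after bisulfite, a ratio of 15.0. The two-sided exact permutation test gave p = 0.333 for hmC-Seal against conventional, for bisulfite against conventional and for hmC-Seal against bisulfite. With 2 libraries against 2 this is the smallest p possible, so none of the 3 differences could pass a threshold. Conventional reads were aligned with Bowtie 2 and the others with Bismark, and the names of the entries carry one IgG tag in the conventional lists and another in the bisulfite and hmC-Seal lists. Aligner, IgG tag and conventional preparation cannot be told apart in this design.

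**Figure D1:**
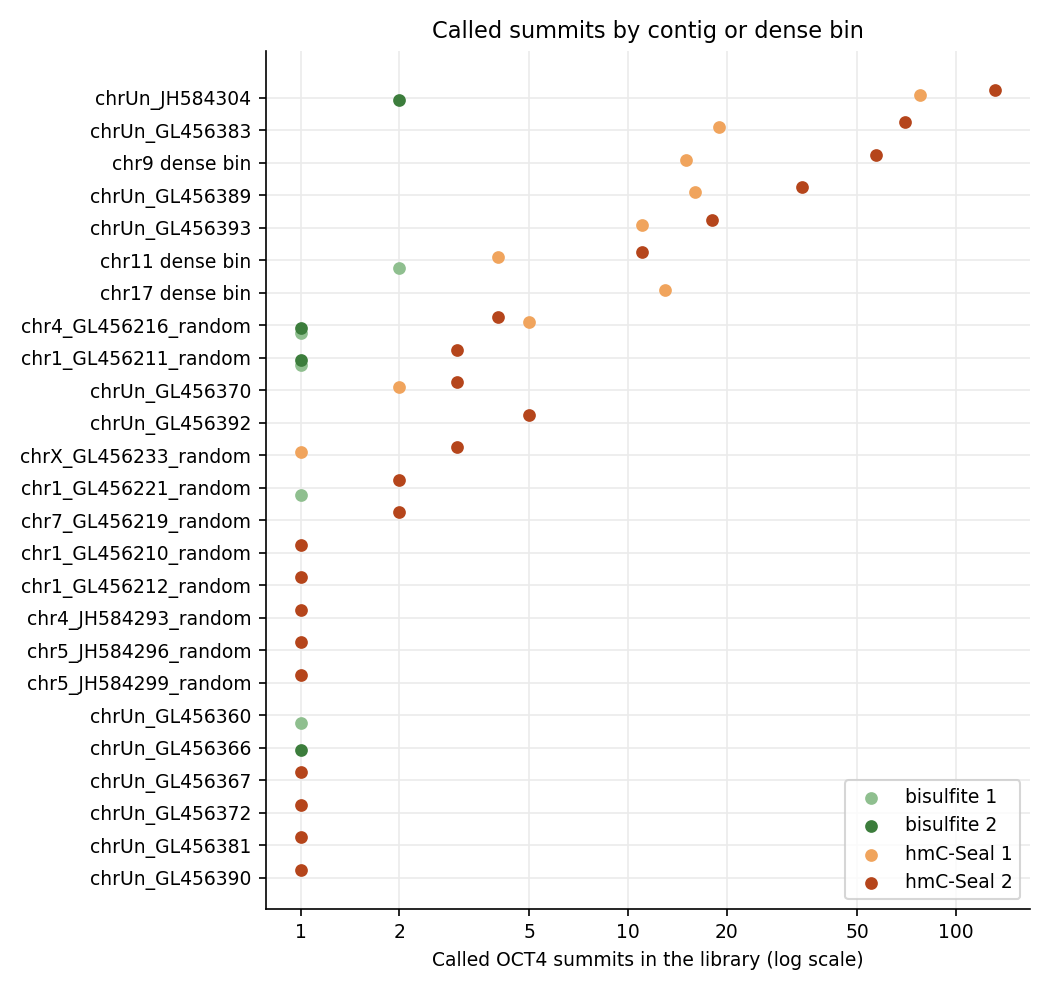
Number of called OCT4 summits (log scale) on each of the 22 contigs and in the 3 dense bins, with 1 point per library and no point where a library had none; the conventional libraries had none anywhere. The contig chrUn_JH584304 leads with 78 and 132 summits in the hmC-Seal libraries, and most other contigs have 1 or a few.

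A handful of contigs held nearly all of these summits. The unplaced contigs chrUn_JH584304 (212 summits over all lists), chrUn_GL456383 (89), chrUn_GL456389 (50) and chrUn_GL456393 (29) together had 380 of the 426. In hmC-Seal replicate 1 they held 124 of 132 contig summits (93.9%) and in replicate 2 they held 254 of 285 (89.1%). The bisulfite libraries had only 2 summits there, both in replicate 2 on chrUn_JH584304. The fifth and the sixth contigs by number of summits were chr4_GL456216_random, with 11, and chr1_GL456211_random, with 5, a number that chrUn_GL456370 and chrUn_GL456392 also reached. With those leading 4 contigs left out, the difference in share between hmC-Seal and bisulfite was 0.0965 percentage points in place of 2.70.

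On chrUn_JH584304 the hmC-Seal summits formed a nearly continuous row. Replicate 1 had 78 summits in 58 regions, from position 59584 to 114271 of the contig, with a median spacing of 416 bp and 8957 called bases. Replicate 2 had 132 summits in 78 regions, from 67950 to 114448, with a median spacing of 272 bp and 22853 called bases. The fold enrichment, the caller's ratio of OCT4 fragments to local IgG background, had a median of 3.22 over the summits of replicate 1 and 7.63 over those of replicate 2. The 2 bisulfite summits, at chrUn_JH584304:81952-82125 and chrUn_JH584304:87692-87812, had folds of 2.03 and 2.63. Both values were below the median of either hmC-Seal library on this contig.

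The next contigs followed the same course. On chrUn_GL456383, hmC-Seal replicate 1 had 19 summits with a median fold of 3.09, and replicate 2 had 70 with 7.77. On chrUn_GL456389 there were 16 summits with a median fold of 3.07 and 34 with 7.28. On chrUn_GL456393 there were 11 with 2.91 and 18 with 7.22. In each of the 4 contigs replicate 2 thus had more summits and a higher median fold than replicate 1. The whole lists also differ in length, with 11388 regions in replicate 2 against 3630 in replicate 1.

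The remaining 18 contigs held few summits, 8 in hmC-Seal replicate 1 and 31 in replicate 2. The counts that follow are over all 22 contigs, with the leading 4 included. Of the 22 contigs, 16 had summits only after hmC-Seal, 2 only after bisulfite (chrUn_GL456360 and chrUn_GL456366, 1 summit each) and 4 after both. The hmC-Seal lists held 3974 and 11615 of all 20955 summits, and the bisulfite lists 2797 and 2077. A longer list can reach more contigs, and how far list length gave these counts was not tested. Of the contigs with hmC-Seal summits, 7 had them in both replicates and 13 in replicate 2 alone, of which 9 carried a single summit. In no case was a contig called in hmC-Seal replicate 1 alone. No contig or dense bin was called in all 6 libraries, and 3 contigs were called in 3 or more.

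One region of chr4_GL456216_random was called in all 4 libraries that had contig sites. It spanned positions 17051 to 17304 with a fold of 10.5 in bisulfite replicate 1, and 17039 to 17235 with 8.68 in bisulfite replicate 2. In the hmC-Seal libraries it spanned 17033 to 17336 with a fold of 16.3 and 17034 to 17276 with 7.87. It was the contig site of highest −log10 q, the caller's adjusted significance, in both bisulfite libraries (15.1 and 10.2), where it ranked 378 of 2797 and 506 of 2077. A second site shared by the bisulfite replicates was at chr1_GL456211_random:216400-216499, with folds of 6.00 and 6.02. The hmC-Seal summits of that contig lay elsewhere, all 3 of them in replicate 2.

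The IgG background was high at most hmC-Seal contig sites. From the fold and the p-value of each summit, the height of the OCT4 pileup and of the local IgG background can be solved for. Both are given below as multiples of the library's genome background, the level that the caller assumes where IgG shows nothing, so that libraries of different depth can be set side by side. At hmC-Seal contig regions the median IgG background was 47.1 times the genome background in replicate 1 and 39.9 times in replicate 2. At other chromosomal regions of the same lists it was 1.44 and 1.00 times. More than 10 times the genome background was seen at 97 of 103 contig regions (94.2%) of replicate 1 and at 167 of 193 (86.5%) of replicate 2, against 112 (3.21%) and 666 (5.99%) of other regions. High background was thus not particular to contigs: the dense bins had medians of 39.1 and 99.4 times, and matched mitochondrial summits 727 and 751 times. In bisulfite replicate 1 none of the 4 contig regions exceeded 10 times, against 12.2% of other regions, and in replicate 2 it was 2 of 5, both on chrUn_JH584304, against 5.51%.

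The OCT4 pileup was also high, in the same places. Its median was 162 and 391 times the genome background at contig regions of hmC-Seal replicates 1 and 2, against 23.7 and 44.9 times at other regions. The excess over other regions was 6.82-fold and 8.71-fold for the pileup, and 32.7-fold and 39.8-fold for the IgG background. The 2 conventional libraries gave 4 and 6 other regions with a background over 10 times the genome level, of 182 and 197. How far copy number in the cells or the placing of repeated reads contributes to these levels was not tested.

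**Figure D2:**
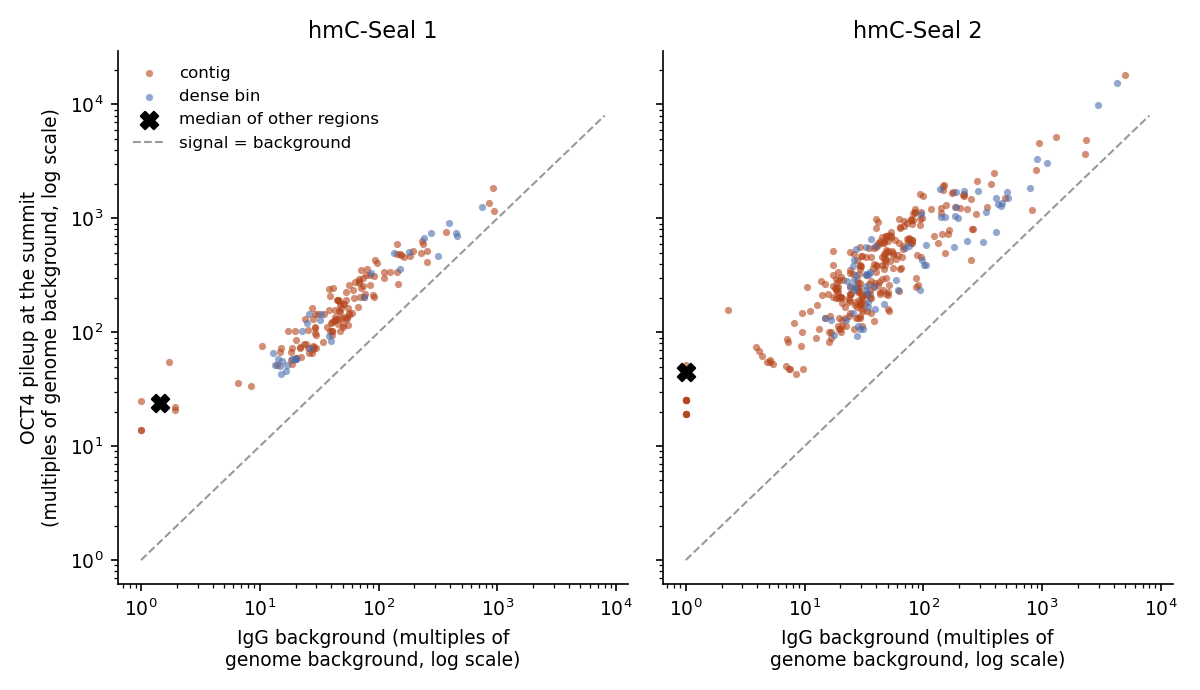
OCT4 pileup at each summit (vertical, log scale) against the local IgG background (horizontal, log scale), both in multiples of the library's genome background, for the contig and dense-bin summits of each hmC-Seal replicate; the cross is the median of all other regions and the dashed line marks equal values. Most members sit more than 10 times above the genome background on both axes, and the cloud of replicate 2 lies further above the line than that of replicate 1.

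To set the depths side by side, the pileup and background of the 132 contig summits of hmC-Seal replicate 1 were rescaled to the genome background of each other library, and the Poisson p-value was taken again. In the depth of either bisulfite library all 132 would have reached the smallest p-value in its list, where 4 and 5 contig summits were called. In the depth of the conventional libraries 91 of 132 (68.9%) would have reached it in each, where none was called. The rescaling was devised after the values were seen and assumes the same OCT4 and IgG multiples in each library. All these summits had been called in hmC-Seal replicate 1, so it only describes them and does not test the part of depth. For the conventional lists the IgG multiples could not be checked.

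The deposited fold did not set contigs apart in one direction. In bisulfite replicates 1 and 2 the median fold of contig regions was 6.02 and 6.02, against 5.99 and 6.28 at other regions. In hmC-Seal replicate 1 contig regions had a lower median fold than other regions, 3.26 against 7.29, a log2 difference of -1.16. In hmC-Seal replicate 2 they had a higher one, 7.68 against 4.32, a log2 difference of 0.83. Averaged over the 4 libraries with contig sites the log2 difference was -0.10 ± 0.82 (SD, n = 4), and the two-sided exact sign-flip test gave p = 0.75 (adjusted over 3 quantities, 0.75). With 4 libraries that test cannot go below 0.125. The fold adds a pseudocount of 1 to pileup and background, which lowers it most where both are small, as in the shallower hmC-Seal replicate 2. The ratio of solved pileup to solved background, without the pseudocount, was lower at contigs in all 4 libraries. Its median at contig and at other regions was 8.56 and 10.8 in bisulfite replicate 1, 8.37 and 11.4 in bisulfite replicate 2, 3.36 and 15.4 in hmC-Seal replicate 1, and 9.75 and 19.2 in hmC-Seal replicate 2. The mean log2 difference was -0.99 ± 0.85 (SD, n = 4), with an exact sign-flip p = 0.125, in a comparison added after the data were seen. A called site needs a higher ratio where background is low, so the calling threshold favours this direction in advance. In hmC-Seal replicates 1 and 2, 36.4% and 52.6% of other regions were at the genome background, against 1.94% and 5.70% of contig regions. How far the threshold sets the difference was not tested. By fold, no contig or dense-bin summit was among the 100 highest of hmC-Seal replicate 1, and 17 were among those of replicate 2. Such summits made up 4.13% and 3.04% of the 2 lists.

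**Figure D3:**
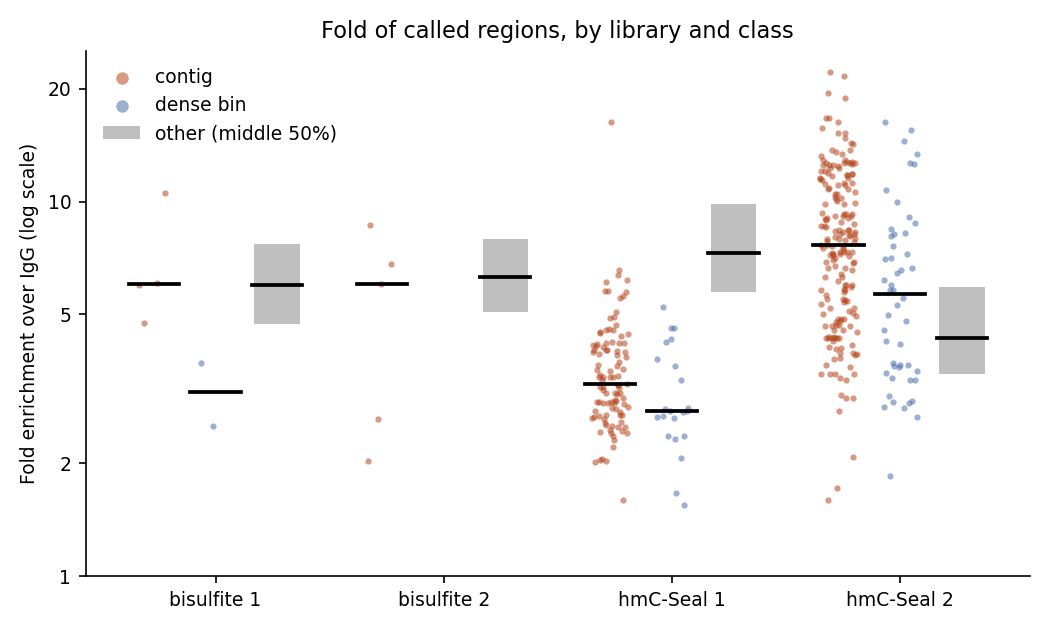
Fold enrichment over IgG (log scale) of each contig region and each dense-bin region, by library, beside the middle 50% of all other regions (grey box); black bars are medians. The contig median lies below the other regions in hmC-Seal replicate 1 (3.26 against 7.29) and above them in replicate 2 (7.68 against 4.32), while the ratio without the fold's pseudocount is lower at contigs in both (3.36 against 15.4, and 9.75 against 19.2). A called site needs a higher ratio where background is low, which favours that direction in advance.

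In the hmC-Seal libraries, significance placed more of these sites near the top than fold did. Among the 100 most significant summits of a list, contigs and dense bins supplied 22 in the first hmC-Seal library and 73 in the second. Over the whole lists they made up 4.13% and 3.04% of summits. They supplied 0 in each of the other 4 libraries. There they made up only 0.215% and 0.241% of the bisulfite lists and none of the conventional lists, so few or none could appear. The highest −log10 q of all 11615 summits of hmC-Seal replicate 2, 699, was at chrUn_GL456392:23102-23279, on a contig called in that library alone. Its fold of 3.67 ranked only 8487. Both levels were extreme there, an OCT4 pileup of 18153 times and an IgG background of 4944 times the genome background. In replicate 1 the leading contig site was chrUn_GL456393:7442-7540, with a −log10 q of 93.3 (rank 11), a fold of 4.09 and a background 143 times that of the genome.

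Contig regions were a little wider than other regions in each library. The median widths exceeded those of other regions by 4.5 and 17 bp in the bisulfite libraries, and by 6 and 50 bp in the hmC-Seal libraries. The mean difference was 19.4 ± 21.2 bp (SD, n = 4), and the exact sign-flip test gave p = 0.125 (0.375 adjusted over 3 quantities), the smallest it allows. The widest region, of 1473 bp on chrUn_JH584304, was in hmC-Seal replicate 2, where contig regions had a median of 149 bp. With the 4 leading contigs left out the mean difference was -0.63 bp, so the greater width rested on them.

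Nearly all contig sites of hmC-Seal replicate 1 overlapped a site of replicate 2. Of its 103 contig regions, 101 overlapped a region of replicate 2 by at least 1 bp (98.1%, 95% Wilson interval 93.2 to 99.5), while 32.0% of all regions of that list did and 29.5% of the other chromosomal regions. Regions of replicate 2 are dense on the leading contigs: they covered 49.1% of the span from the first to the last on chrUn_JH584304, and 20.3% to 25.6% on the next 3 contigs. The part of this density in the agreement was not tested. The 2 without a partner were chrUn_JH584304:59584-59783 and chr4_GL456216_random:31694-31792. In the reverse direction 87 of 193 contig regions of replicate 2 overlapped one of replicate 1 (45.1%, 38.2 to 52.1), against 10.0% of all regions and 9.27% of other regions. Of the bisulfite contig regions, 2 of 4 overlapped the other replicate in replicate 1, where 36.7% of all regions did, and 2 of 5 in replicate 2, where 50.3% did. The mean difference from other regions was 26.9 ± 33.5 percentage points (SD, n = 4), with an exact sign-flip p = 0.25 (0.375 adjusted over 3 quantities), since one bisulfite library went the other way.

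The agreement extended to the exact summit. Of the 132 contig summits of hmC-Seal replicate 1, 108 (81.8%) had a summit of replicate 2 within 20 bp, at a median distance of 3 bp. Among the summits at other chromosomal regions 761 of 3724 (20.4%) did, with a median of 5 bp. Summits of replicate 2 stood close together on the leading contigs, at a median spacing of 272 bp on chrUn_JH584304, which raises the number that can fall within 20 bp of another.

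At these matched summits the OCT4 pileup was higher in replicate 2. Both hmC-Seal lists carry the same IgG tag, so a like IgG background in both follows from the design and only checks the solved values: the ratio of replicate 2 to replicate 1 was 1.04 (median) over the 108 contig pairs, 1.04 over 63 mitochondrial pairs and 1.06 over 61 pairs at other regions with a background over 10 times the genome level. Over the contig pairs the pileup of replicate 2, in multiples of its genome background, was 3.47 times as high (3.01 to 3.93) and was higher in replicate 2 at 108 of 108 pairs. The fold was 3.01 times as high, and higher at 106 of 108. Over 761 pairs at other regions the pileup was 1.95 times as high and the fold 0.79 times, with a higher fold at 282. The pseudocount of 1 in the fold weighs more at low background and in the shallower replicate 2. The ratio of pileup to background, without it, was 3.32 times as high in replicate 2 at contig pairs and 1.28 times at other pairs. At the 61 other pairs of high background the pileup ratio was 1.96 and the fold ratio 1.50, and at the 63 mitochondrial pairs the pileup ratio was 1.33. A pair needs a call in the shallower replicate 2 as well, so summits with low values there could not enter. At equal multiples, 90 of the 132 contig summits of replicate 1 (68.2%) would have reached the smallest p-value of the replicate 2 list. The part of this selection in the ratios was not tested. Pairs of one contig are not independent, so these ratios describe 2 libraries and are given without a test.

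The 4 contigs gave much the same ratio each. The median pileup ratio was 3.49 over 64 pairs on chrUn_JH584304, 3.39 over 15 on chrUn_GL456383, 3.60 over 15 on chrUn_GL456389 and 3.18 over 10 on chrUn_GL456393. On chr4_GL456216_random it was 1.54 over 3 pairs. At the matched chrUn_JH584304 summit of highest −log10 q in replicate 1 (chrUn_JH584304:69479-69709) the IgG background was 93.1 and 93.7 times the genome level in replicates 1 and 2, while the pileup was 428 and 1622 times and the fold 4.53 and 16.3.

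**Figure D4:**
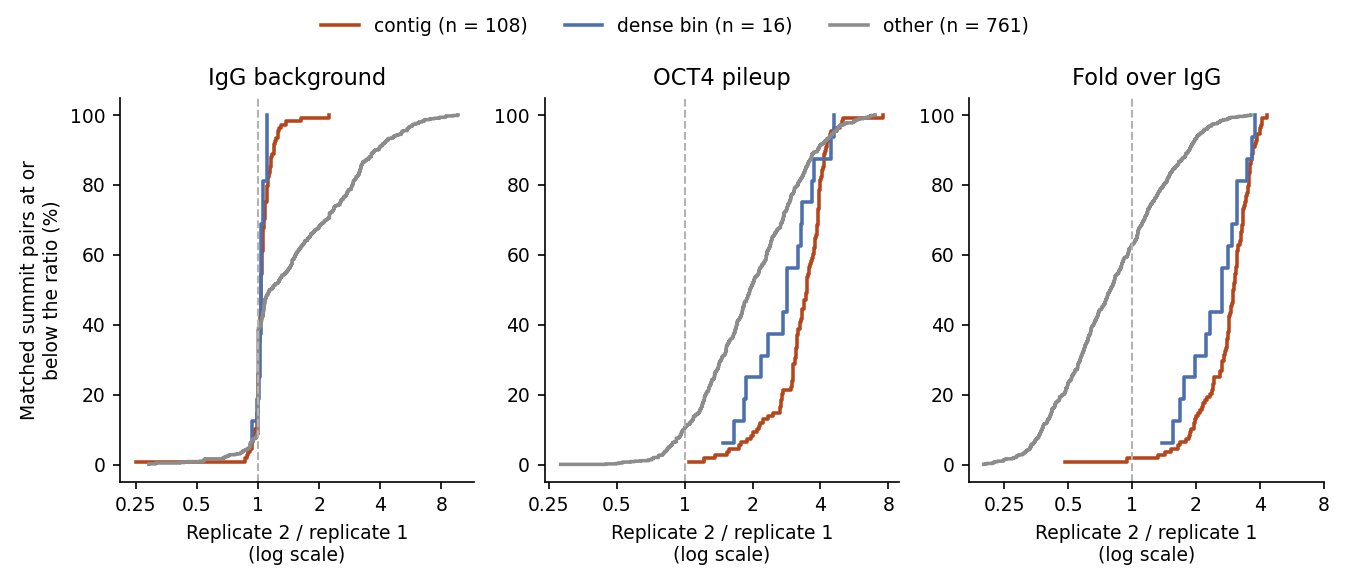
Cumulative share (percent) of hmC-Seal summit pairs within 20 bp of each other against the ratio of replicate 2 to replicate 1 (log scale), for the IgG background, the OCT4 pileup and the fold, in contigs (108 pairs), dense bins (16) and other regions (761). Both replicates share an IgG tag, so the background ratio is near 1 by design where it is high, and the median pileup ratio is 3.47 at contig pairs, 2.84 at dense-bin pairs and 1.95 at other pairs. A pair needs a call in both lists, so summits with low values in the shallower replicate 2 could not enter.

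**Figure D5:**
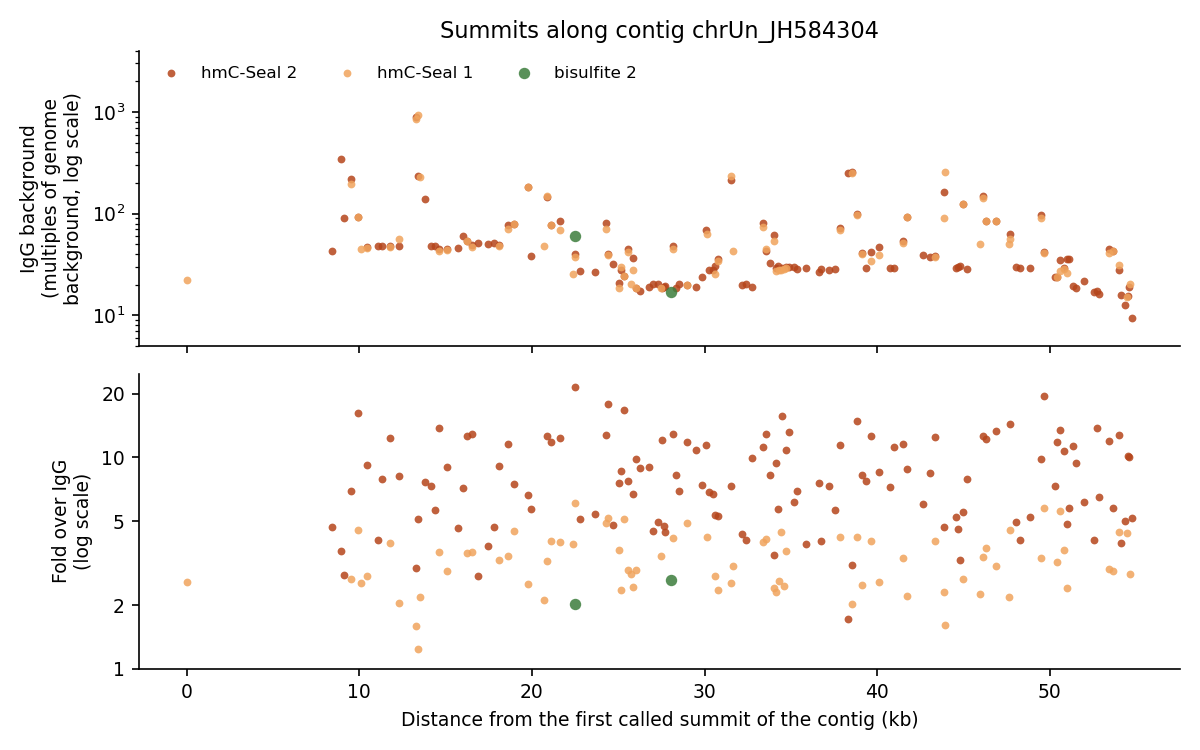
IgG background in multiples of the genome background (above, log scale) and fold over IgG (below, log scale) of every summit on chrUn_JH584304, by distance in kb from the first called summit, for hmC-Seal replicates 1 and 2 and the 2 summits of bisulfite replicate 2. All 3 lists carry the same IgG tag, so their backgrounds follow one course by design, and the median fold is 3.22 in hmC-Seal replicate 1 and 7.63 in replicate 2.

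The densest chromosomal bin was the assembled start of chromosome 9. Positions 3000001 to 3100000 held 15 summits in hmC-Seal replicate 1 and 57 in replicate 2, and none in the conventional and bisulfite libraries. All lay between 3000026 and 3038413, short of Mir101c. The median fold was 2.77 in replicate 1 and 5.29 in replicate 2. In the depth of either bisulfite library, all 15 summits of replicate 1 would have reached the smallest p-value of the list, and 14 of the 15 would have done so in that of each conventional library. For the bisulfite libraries the greater depth and lower smallest −log10 p fixed the outcome in advance. The bin was chosen for its hmC-Seal summits, so this rescaling only describes them and does not test the part of depth.

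At the chromosome 9 regions the IgG background was 166 and 140 times the genome background in the hmC-Seal replicates (medians), above the medians over all contig regions but below those of chrUn_GL456390 and chrUn_GL456392 in replicate 2 (2348 and 1313 times). The leading region of replicate 1, chr9:3030844-3030934, had a fold of 3.65, a pileup 497 times and a background 135 times the genome level. Replicate 2 had the same site at chr9:3030819-3030946, with a fold of 12.6, a pileup 1827 times and a background 139 times. The leading region of replicate 2 was chr9:3025814-3025934, second of its whole list with a −log10 q of 596 and a fold of 3.65. All 12 regions of replicate 1 in this bin were also called in replicate 2, as were 32.0% of all regions of the replicate 1 list. The other way it was 11 of 42, against 10.0% of all regions. Of the 15 summits of replicate 1, 13 had a partner within 20 bp, against 20.4% of those at other regions. These pairs had a median pileup ratio of 3.17 and a background ratio of 1.03. Regions of replicate 2 covered 8020 bp of the bin, and the part of this density in the agreement was not tested.

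The chromosome 11 bin, at 3100001 to 3200000, was likewise the first called stretch of its chromosome. Bisulfite replicate 1 had 2 summits there, and the hmC-Seal libraries had 4 and 11. The hmC-Seal sites and the bisulfite sites did not coincide. The hmC-Seal regions lay between 3100282 and 3104728, outside every gene of the table and 19274 bp from the nearest, Pisd-ps1, a transcribed pseudogene. All 4 regions of replicate 1 overlapped regions of replicate 2, as did 32.0% of all regions of the replicate 1 list. Here too the part of the density of sites in this agreement was not tested. The strongest of the 4, chr11:3101257-3101344, had folds of 4.29 and 9.96 in the 2 replicates. The 2 bisulfite regions, chr11:3168299-3168394 with a fold of 3.71 and chr11:3197281-3197370 with 2.51, were both inside the span of Sfi1, which encodes a centrin-binding protein of the centrosome. Gm33862, Gm11400 and Fau-ps2, a lncRNA and a pair of pseudogenes in the same bin, overlapped no region.

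No other chromosome began in this way. Over the first called 100 kb of chromosomes 1 to 19, the most summits in any 1 library were 57 on chromosome 9, 11 on chromosome 11 and 4 on chromosome 12. The remaining 16 chromosomes had at most 3. Among them, chromosome 14 had 3 in each hmC-Seal library and none in the conventional and bisulfite libraries.

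The chromosome 17 bin, at 39800001 to 39900000, was called in hmC-Seal replicate 1 alone, with 13 summits in 6 regions. All lay between 39844178 and 39848743, with a median fold of 2.88 and a median IgG background 16.7 times the genome level. The stretch includes Rn18s-rs5, a copy related to the 18S ribosomal RNA gene, which spans 39846354 to 39848202. Regions chr17:39846355-39846446 (fold 2.37) and chr17:39847660-39847760 (fold 2.06) overlapped it. A further region, chr17:39848462-39848743, overlapped AY036118, a lncRNA, and the other 3 regions overlapped no gene of the table. The first and widest, chr17:39844178-39844824, held 5 summits with folds of 2.67, 3.13, 3.55, 3.80 and 4.59.

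No region of the other 5 libraries overlapped those of chromosome 17. Rescaled at equal multiples to the depth of hmC-Seal replicate 2, 1 of the 13 summits would have reached the smallest p-value in its list, and the same held for each conventional library. At contig pairs the pileup multiples of the hmC-Seal replicates were not equal, and whether they were at this bin cannot be read from the lists. In the depth of either bisulfite library all 13 would have reached it, and none was called. The greater depth and lower smallest −log10 p of the bisulfite lists fixed that outcome in advance. This bin too was chosen for its hmC-Seal summits, so the rescaling is a description and the part of depth was not tested.

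Among 31 gene families and repeat-rich genes looked up by symbol, 3 had a member in a dense bin: Rn18s with Rn18s-rs5, Sfi1, and the microRNAs with Mir101c. For Rn45s, Mid1, Erdr1, Asmt, Srsy and Hist the gene table held no gene on chromosomes 1 to 19. These could thus have no member in a bin. Large tandem families such as the vomeronasal receptors Vmn1r (372 genes on chromosomes 1 to 19) and Vmn2r (251) had none. The RefSeq table holds 17 genes with no named sequence, which could not be assigned to a contig.

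The number of summits near the threshold of the dense bins falls off quickly. Of 10710 bins with any summit, 10634 had at most 3 in every list. Just inside were chromosome 11 (11 in 1 list) and chromosome 17 (13). Just outside were the bins of chromosome 2 from 98600001 (9 summits in hmC-Seal replicate 2) and from 22500001 (8), and of chromosome 5 from 109500001 (8 in hmC-Seal replicate 1). The chromosome 5 bin was called in all 6 libraries, with 3 to 8 summits and a median fold of 18.98, whereas the dense bins of chromosomes 9 and 17 were called only after hmC-Seal.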

How the data were processed

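CUT&RUN of OCT4 was analysed in 6 libraries, with 2 replicates per preparation (conventional, bisulfite, hmC-Seal). The groups came from the sample titles. The authors trimmed reads with fastp 0.19.4 and aligned them to GRCm38, conventional reads with Bowtie2 2.4.1 and the others with Bismark 0.22.3, which by default drops reads that fit several places equally well. No filter on mapping quality is given in the sources used here. Only methylated bisulfite reads and fragments of up to 120 bp were kept, and MACS 2 called peaks in each library against IgG at q of 0.05 with every summit listed. In the deposited lists the fold is a ratio to local IgG background with a pseudocount of 1, −log10 p and −log10 q are those the authors' caller gave, and the score is a whole number made by the authors from −log10 q. Positions are those of GRCm38, written from 1.

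Summits were counted as deposited, and a region was an entry with a distinct start and end, with its summit of highest −log10 q. Pileup and background were solved for jointly from fold and Poisson p-value (Python 3.11.15, numpy 2.4.6, scipy 1.17.1), and the commonest background of a list was taken as that of the genome. The step was tested on simulated data. The lists hold no read totals, so this background is the only measure of depth. In the caller's units, it was 0.58 for the first hmC-Seal library and 0.156 for the second, so values of replicate 2 rest on fewer fragments. The units of the first library are scaled: exactly solved pileups there, such as 8.09, are not whole fragments. The rescaling to the depth of other libraries and the look at matched pairs were devised after the values were seen. It takes the smallest −log10 p of each list as its limit.

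Contigs and bins were chosen with earlier results of these data known, as were the families looked up. Named are the 6 contigs of most summits, every dense bin, the contig and dense-bin entries of highest −log10 q in each library, and genes in the bins. Other sites were named after their values were seen. Shares were compared by exact permutation tests, and contig with other regions by exact sign-flip tests over libraries with Benjamini-Hochberg adjustment over 3 quantities. The sign-flip tests had been planned over 6 libraries, but the conventional lists had no contig region, which left 4. Nothing says that replicates came from separate cultures, so p-values measure only the spread between these libraries. Same-numbered conventional and bisulfite libraries came from the same pool. Gene spans, the microRNA and its coordinates are from RefSeq (GRCm38.p6). A planned search for motifs was not run, since no GRCm38 sequence was used.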

Additional observations from a re-analysis of the deposited data

How the results depend on the processing

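The difference in contig share between hmC-Seal and conventional libraries (2.89 percentage points) and between hmC-Seal and bisulfite libraries (2.70) kept its direction under every alternative run. Neither conventional library had a contig summit, so a difference from them could not change its direction. Leaving out each replicate gave 2.45 to 3.32 and 2.26 to 3.13. Bisulfite minus conventional (0.192) ranged from 0.143 to 0.241 in the same way and was 0.0901 with only unplaced contigs. Leaving out the leading 4 contigs, chosen after seeing the data, gave 0.240, 0.0965 and 0.144. With a replicate block the 3 differences were the same, at an exact p = 0.5, the smallest that 2 pairs allow. The log2 fold difference of contig regions (-0.10) was reversed to 0.26 without hmC-Seal replicate 1 and was -0.41 without hmC-Seal replicate 2 and -0.99 without the pseudocount, chosen after seeing the data. The width difference (19.4 bp) ranged from 9.17 without hmC-Seal replicate 2 to 24.3, was 49.9 by summit, and was reversed to -0.63 without the 4 contigs. The difference in replicate agreement (26.9 percentage points) ranged from 13.0 without hmC-Seal replicate 1 to 39.3, and was 13.6 when 50% of both regions had to overlap. The replicate block left these 3 means as they were, with exact p of 1, 0.5 and 0.5. In place of 3 dense bins there were 18 at 5 or more summits, 6 at 8, 1 at 15, 1 at 20, 5 in 200 kb bins, 4 in bins shifted by 50 kb and 1 when distinct regions were counted. At −log10 q of at least 3 there were 2, without chromosome 11. Without a replicate there were 2 to 3, and the chromosome 17 bin was lost without hmC-Seal replicate 1 and the chromosome 11 bin without hmC-Seal replicate 2.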
